A study of Homo sapiens with 8 samples.

Results

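The genes described here encode the proteins of the cytosolic ribosome. They were taken from the GENCODE 29 annotation as protein-coding genes with a symbol of RPL, RPS or RPLP, a number and at most one further letter A, X or L. The rule found 80 of 58780 annotated genes, 49 of the large subunit and 31 of the small subunit. At least 1 uniquely mapped read crossed an annotated junction in 79 of the 80, against 21597 genes in all, and 78 of the 80 passed the filter on low counts, among 14250 genes tested. The exceptions were RPL10L, a gene without introns that cannot give a spliced read, and RPL3L, with 53 reads in all libraries together.

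HEK293, an established human embryonic kidney line, had received either 25 nM LMI070 (branaplam), a small molecule that changes pre-mRNA splicing, or DMSO, its solvent. Each group comprised 4 libraries of rRNA-depleted total RNA, DMSO replicates 9 to 12 and LMI070 replicates 13 to 16. Lane 7 of the sequencer carried DMSO 11 and 12 and LMI070 13 and 16, lane 8 carried DMSO 9 and 10 and LMI070 14 and 15, and the run codes in the labels also differ between the lanes. The series title concerns gene therapies switched by a splicing drug, and the question asked of these genes is whether their spliced RNA or their choice of splice sites changed with the drug.

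A ribosome holds one copy of most of these proteins, and its genes are transcribed and translated together at a high rate in dividing cells. Their mRNAs typically begin with a C followed by an unbroken run of pyrimidines, the 5′ terminal oligopyrimidine (TOP) element, through which mTOR signalling and LARP1 control translation. Many of the genes host small nucleolar RNAs in their introns and have numerous processed pseudogenes elsewhere in the genome. LMI070 is known to strengthen the pairing of U1 snRNP with 5′ splice sites that follow an exon ending in GA.

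The libraries held between 20362475 and 36118131 uniquely mapped junction reads with a strand. Of the genes known from HEK293 cells, GATA3 stood at 2.72 to 3.40 CPM (defined at the end of the paragraph) in DMSO and 3.46 to 6.18 CPM in LMI070, and NEFM at 4.87 to 5.37 and 5.23 to 7.89 CPM, both chosen after their values were seen. GATA3 was at 6.18 and 5.51 CPM in LMI070 13 and 16 and was called higher in lane 7 (log2 1.03, edgeR adjusted p = 3.34e-04). Markers of blood summed to 0.0878 to 0.440 CPM in DMSO and 0.190 to 0.538 CPM in LMI070, with HBB at 0. Hepatocyte markers summed to 0.0362 to 0.132 CPM and 0.0448 to 0.190 CPM, with APOB and SERPINA1 at 0. Epithelial markers summed to 0.759 to 0.924 CPM and 0.619 to 1.30 CPM, and fibroblast markers, mainly COL1A1, to 20.1 to 24.8 CPM and 23.2 to 31.0 CPM, with none at 0. COL1A1 was also called higher in lane 7, at 28.9 and 25.1 CPM in LMI070 13 and 16 against 19.6 and 18.5 CPM in DMSO 11 and 12 (log2 0.52, edgeR adjusted p = 0.00127). The part of these levels in the results below was not tested. In bulk RNA, fewer cells of a type and less RNA per cell cannot be told apart. CPM are uniquely mapped reads over the annotated introns of a gene, scaled by the library's total over all genes and its TMM factor.

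Ribosomal protein genes supplied between 8.03% and 9.10% of all reads across annotated junctions. Their share was 8.86% and 8.90% in DMSO 9 and 10, 8.55% and 8.46% in DMSO 11 and 12, 9.10% and 9.02% in LMI070 14 and 15, and 8.16% and 8.03% in LMI070 13 and 16. Over both lanes the groups overlapped, with means of 8.69% ± 0.222 for DMSO and 8.58% ± 0.563 for LMI070 (SD, n = 4 each). Within lane 8 both LMI070 libraries were above both DMSO libraries, and within lane 7 both were below. Large and small subunits followed the same order. Large-subunit genes took 5.09% ± 0.0299 in DMSO and 4.84% ± 0.0348 in LMI070 of lane 7, against 5.33% ± 0.0161 and 5.44% ± 0.0367 in lane 8 (SD, n = 2 each). Small-subunit genes took 3.41% ± 0.0307 and 3.25% ± 0.0592 in lane 7, against 3.55% ± 0.0104 and 3.62% ± 0.0248 in lane 8.

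**Figure D1:**
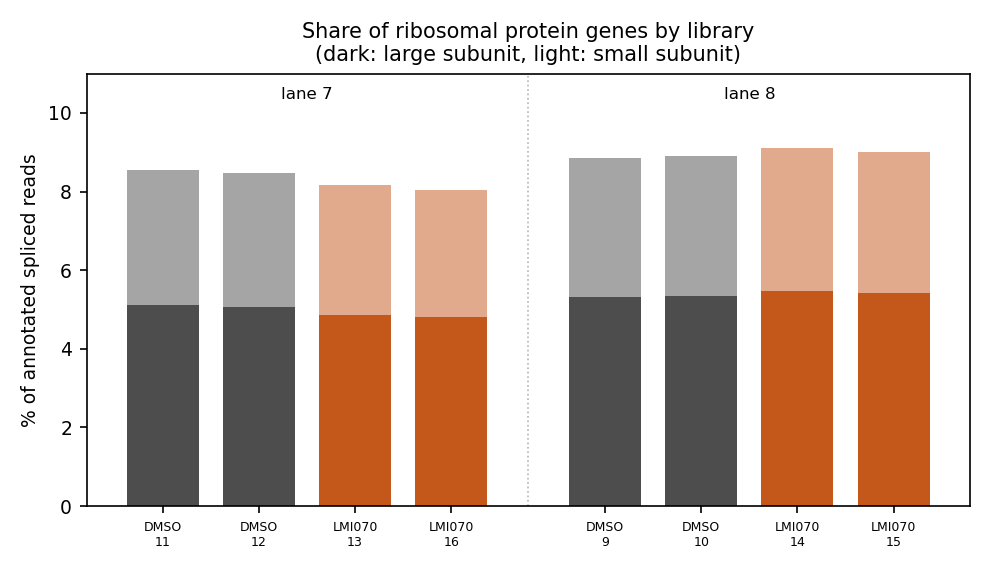
Share of annotated spliced reads (%) that lay in ribosomal protein genes in each of the 8 libraries, with large-subunit genes dark and small-subunit genes light, grouped by lane. LMI070 libraries had the lowest totals in lane 7 (8.16% and 8.03%) and the highest in lane 8 (9.10% and 9.02%).

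Levels per gene can be compared only per junction, since genes with more introns give more spliced reads. The median over a gene's main introns (those with at least 10% of the reads of its most-read intron) was highest in RPL37A, at 533 ± 16.8 CPM per intron in DMSO and 517 ± 53.3 in LMI070 (SD, n = 4). RPL13A followed at 442 ± 20.6 and 443 ± 13.9 CPM per intron. RPS19, the small-subunit protein most often mutated in Diamond-Blackfan anaemia, stood at 418 ± 10.7 and 387 ± 48.7 CPM per intron. RPL19 stood at 407 ± 18.9 and 410 ± 46.1, and RPS2 at 386 ± 17.6 and 390 ± 7.24 CPM per intron. Neighbours from RPS19 to RPS2 lay within their spread.

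At the other end were 3 paralogs. RPL3L, the striated-muscle form of RPL3, was at 0.00956 ± 0.0191 CPM per intron in DMSO, where RPL3 itself stood at 176 ± 9.63. RPL39L, a paralog of RPL39, was at 4.61 ± 0.254 CPM per intron, against 260 ± 18.8 for RPL39. RPS27L, a paralog of RPS27, was at 30.5 ± 2.09 CPM per intron, against 178 ± 5.77 for RPS27. The lowest of the usual ribosomal proteins were RPL28 (98.0 ± 9.23), RPS26 (103 ± 4.24) and RPL22 (108 ± 6.46 CPM per intron), which did not differ beyond their spread. RPL10, the X-linked partner of the intronless RPL10L, stood at 186 ± 9.33 CPM per intron.

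With all 8 libraries in one fit and lane as a term, no ribosomal protein gene passed the test, 0 of 78, where 0.126% of all genes did (edgeR quasi-likelihood test, Benjamini-Hochberg adjusted p under 0.05). At an unadjusted p under 0.05 there were 8, RPS16, RPL28, RPS29, RPL31, RPS3A, RPL34, RPS15 and RPL23A, a share of 10.3% that was near the 10.4% over all genes. DESeq2 also called 0, with 4 at that unadjusted p. The median log2 fold change of the 78 genes was -0.04, and 60 of them were negative, against a median of -0.00243 and 50.9% negative over all genes tested. The labels do not say whether libraries came from separate cultures, so these p-values measure the spread between libraries, which may be technical. Without the filter on low counts edgeR called RPS16 (0.44) and RPL28 (0.14) higher and RPS29 (-0.22) lower.

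The 6 largest positive log2 fold changes, none past the test, belonged to RPS16 (0.43, SE 0.145, edgeR adjusted p = 0.342), RPL28 (0.14), RPLP1 (0.10), RPL8 (0.08), RPS28 (0.06) and RPL29 (0.05). The 6 largest negative ones belonged to RPS29 (-0.22, SE 0.0782, edgeR adjusted p = 0.359), RPS27L (-0.13), RPL31 (-0.11), RPS3A (-0.11), RPL34 (-0.11) and RPS15 (-0.10). Leaving out each library in turn changed no sign among these 12 but moved 11 of them, all but RPL29, by over 1.5 times. The smallest size came without DMSO 12 in 6 genes, RPL28 (0.084), RPL8 (0.026), RPS28 (0.034), RPS27L (-0.055), RPS3A (-0.056) and RPL34 (-0.050). It came without DMSO 11 in RPS16 (0.27) and RPS15 (-0.053), without LMI070 13 in RPLP1 (0.045), and without LMI070 16 in RPS29 (-0.12) and RPL31 (-0.060). The LMI070 libraries spread widely in RPS16 and RPS29, at 623 ± 245 and 290 ± 68.1 CPM, against 436 ± 38.0 and 332 ± 18.4 CPM in DMSO (SD, n = 4).

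Because the LMI070 libraries of the 2 lanes differed, each lane was also fitted alone and the difference between the lanes was tested. In that interaction test, a positive value means that the LMI070 minus DMSO difference was higher in lane 8 than in lane 7. It was called for 13 of 78 ribosomal protein genes, 16.7%, where 2.65% of all genes were called (edgeR, adjusted p under 0.05). Of the 13, 11 were positive, where 0.428% of all genes were called positive. They were RPS29, RPS27L, RPS25, RPS3A, RPS19 and RPS13 of the small subunit and RPL34, RPL21, RPL31, RPL9 and RPL7 of the large subunit. RPS16 and RPLP1 were negative, where 2.22% of all genes were called negative. The median interaction of the 78 genes was 0.14, with 69 positive, against 0.00778 over all genes tested. All genes tested include ones with far fewer reads and a larger SE than most of these 78. The part of read depth in these shares, and in those given for each lane below, was not tested.

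Which genes were called depended on single libraries. The number of positive calls was 1 without DMSO 9, 1 without DMSO 10, 40 without DMSO 11, 32 without DMSO 12, 7 without LMI070 13, 1 without LMI070 14, 2 without LMI070 15 and 1 without LMI070 16. Negative calls numbered 6 without DMSO 11 and 1 without each of DMSO 9, LMI070 13 and LMI070 15. In those fits a lane and group with 1 library is assumed to vary like the others. RPS16 and RPS29 were called in all 8 of these fits, RPLP1 in 5, and RPL34, RPL31, RPS25, RPS19 and RPS27L in 3 each.

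**Figure D2:**
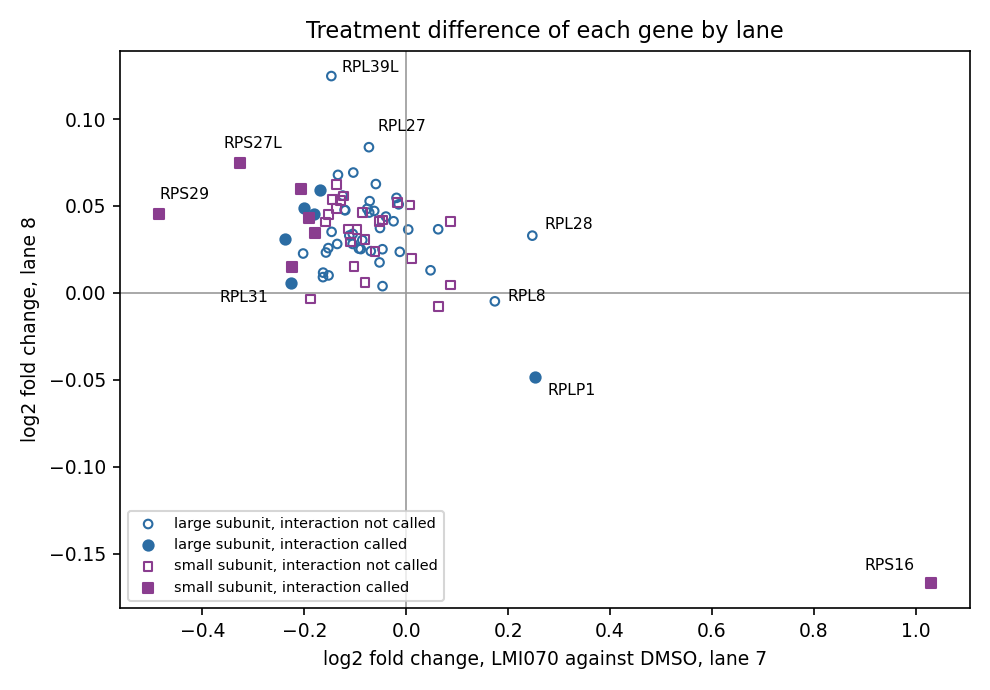
Log2 fold change of LMI070 against DMSO in lane 7 (horizontal axis) and lane 8 (vertical axis) for the 78 tested genes, with circles for the large subunit, squares for the small subunit and filled symbols where the interaction was called; the axes differ in scale. Most genes lay left of 0 in lane 7 (66 of 78) and above 0 in lane 8 (73 of 78), and RPS16 stood alone at 1.03 and -0.17.

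In lane 7 the median log2 fold change of the ribosomal protein genes was -0.10, with 66 of 78 negative, against a median of -0.00344 over all genes. In lane 8 it was 0.04, with 73 of 78 positive, against 0.00114 over all genes. The exceptions in lane 8 were RPL8, RPLP1, RPS15, RPS16 and RPS2. Both medians kept their sign with TMM factors computed without these genes (-0.09 and 0.04), with upper-quartile factors (-0.10 and 0.03) and with the size factors of DESeq2 (-0.10 and 0.04), as ratios of group means. In lane 7 both LMI070 libraries were below both DMSO libraries in 52 of 78 genes, where this held for 24.7% of all genes. They were above in 5, RPS16, RPLP1, RPL28, RPL8 and RPS21, where 23.2% of all genes were above. In lane 8 both LMI070 libraries were above both DMSO libraries in 47 of 78, against 17.5% of all genes, and below in RPS16 and RPLP1 only, against 18.0%.

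By edgeR within lane 7, 3 of the 78 genes were higher, where 3.71% of all genes were called higher, and 8 were lower, where 0.96% of all genes were called lower. The higher genes were RPS16, RPLP1 and RPL28. The lower genes were RPS29, RPS27L, RPL34, RPL31, RPS3A, RPS25, RPL21 and RPS19, with log2 fold changes from -0.49 to -0.19. Within lane 8, 1 gene was higher, RPL27 (0.08, SE 0.0219, edgeR adjusted p = 0.0488), where 0.0697% of all genes were called higher. RPS16 was lower, where 0.258% of all genes were called lower.

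RPS16, a small-subunit protein at the head of the subunit whose tail reaches the decoding site, was the gene with the largest difference between the lanes. Its level was 437 and 486 CPM in DMSO 9 and 10 and 394 and 426 CPM in DMSO 11 and 12. It was 833 and 837 CPM in LMI070 13 and 16 of lane 7, and 419 and 403 CPM in LMI070 14 and 15 of lane 8. Both lane 7 LMI070 libraries were far above every other library, and both lane 8 LMI070 libraries were below both DMSO libraries of that lane. The fold was 2.04 in lane 7 (log2 1.03, SE 0.0633, edgeR adjusted p = 2.49e-19) and 0.891 in lane 8 (log2 -0.17, SE 0.0268, edgeR adjusted p = 2.24e-06). The interaction was -1.19 (SE 0.0693, edgeR adjusted p = 4.33e-11), and it ranged from -1.28 to -1.12 when each library was left out.

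The gene lies on chromosome 19 from 39433207 to 39435948, minus strand (GRCh38), and 4 main introns carried its reads. The joined exon ends are shown because the rise in lane 7 can be read at each of them, 15 bases of either exon from GENCODE 29 transcripts, with the last 3 bases of the upstream exon in capitals:
intron 1, chr19:39435709-39435847: gtcttcggacgcAAGaagacagcgacagct
intron 2, chr19:39433762-39435606: acgctacagtacAAGctgctggagccagtt
intron 3, chr19:39433570-39433664: tggcccagatttATGctatccgtcagtcca
intron 4, chr19:39433419-39433521: cctattaccagaAATatgtggatgaggctt

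The lane 7 fold was 1.99 at intron 1, 2.05 at intron 2, 2.01 at intron 3 and 2.09 at intron 4. The lane 8 fold was 0.899, 0.910, 0.895 and 0.859 in the same order. Reads at intron 1 numbered 1759 and 1661 in DMSO 11 and 12 against 5531 and 2922 in LMI070 13 and 16. At intron 3 they numbered 3071 and 2905 against 9109 and 5581. These reads are not scaled for depth, unlike the folds, and LMI070 13 was the deepest library, with 36118131 junction reads. DMSO 11, DMSO 12 and LMI070 16 had 25315524, 22072082 and 21456638. No intron of RPS16 moved apart from its others in the test of intron share described below, which covers annotated introns only. An unannotated junction at the 5′ splice site of intron 1, chr19:39435706-39435847, had 11, 12, 10 and 7 reads in DMSO 9 to 12. It had 42, 16, 8 and 30 reads in LMI070 13 to 16, and was not called in the test of junction use described below. The second 5′ splice site of intron 2, used in place of the main one at 2.31% ± 0.382 in DMSO, stood at 2.36% ± 0.174 in LMI070 (SD, n = 4).

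**Figure D3:**
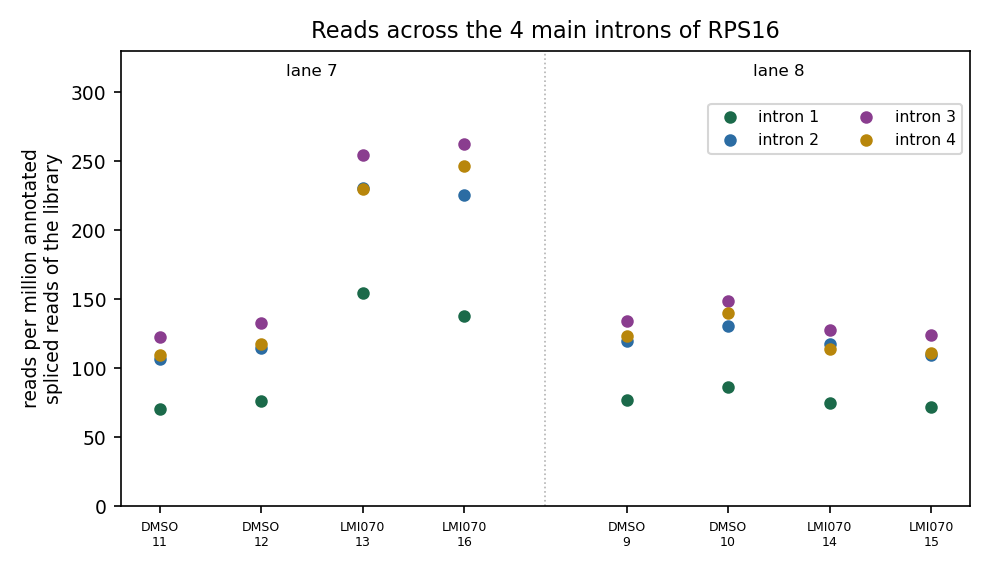
Reads across each of the 4 main introns of RPS16, scaled to the annotated spliced reads of the library (linear axis from 0), in each library by lane. All 4 introns were about 2 times higher in LMI070 13 and 16 than in DMSO 11 and 12 (folds of 1.99 to 2.09), and lay at 0.859 to 0.910 of DMSO in lane 8.

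RPS29, a small zinc-binding protein of the small subunit, moved the other way. Its level was 346 and 328 CPM in DMSO 9 and 10, 307 and 346 CPM in DMSO 11 and 12, 344 and 351 CPM in LMI070 14 and 15, and 250 and 215 CPM in LMI070 13 and 16. The lane 7 LMI070 libraries were below all 6 others, which overlapped. The fold was 0.711 in lane 7 (log2 -0.49, SE 0.0712, edgeR adjusted p = 2.25e-06) and 1.03 in lane 8 (log2 0.05). The interaction was 0.53 (SE 0.0842, edgeR adjusted p = 4.46e-04), from 0.42 to 0.64 with each library left out. The gene lies on chromosome 14 from 49570984 to 49599164, minus strand. Its main introns gave lane 7 folds of 0.740 and 0.682, in transcript order, at these joins, written as above:
intron 1, chr14:49586050-49586284: gggttctcgctcTTGtcgtgtctgttcaaa
intron 2, chr14:49583676-49585949: atcggtttcattAAGttggactaaatgctc

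RPS27L had 84.0, 82.3, 85.0 and 93.9 CPM in DMSO 9 to 12. It had 71.3 and 71.0 CPM in LMI070 13 and 16, and 90.4 and 84.2 CPM in LMI070 14 and 15. Its lane 7 fold was 0.795 (log2 -0.33) and its interaction 0.40 (SE 0.0884, edgeR adjusted p = 0.0109). With each library left out, that interaction was smallest without DMSO 12, at 0.32. Its partner RPS27, a zinc-finger protein of the small subunit, had a lane 7 fold of 0.985 and an interaction of 0.07 that was not called.

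The other small-subunit genes called in the interaction moved less. RPS3A, near the mRNA exit, had 1328 and 1429 CPM in DMSO 11 and 12 and 1165 and 1190 CPM in LMI070 13 and 16, a lane 7 fold of 0.854, and a lane 8 fold of 1.01. RPS19 had 2030 and 1884 CPM against 1723 and 1693 CPM in the same lane 7 libraries, a fold of 0.873, with 1.03 in lane 8. RPS25, a protein needed for initiation on some viral internal ribosome entry sites, had a lane 7 fold of 0.864 and a lane 8 fold of 1.04. RPS13 had folds of 0.880 and 1.02 and did not pass the test within either lane alone. In each of these genes the lane 7 groups did not overlap. Their interactions were 0.24, 0.24, 0.27 and 0.22. Without DMSO 12 those of RPS3A, RPS25 and RPS13 were at their smallest, 0.18, 0.19 and 0.17. That of RPS19 was smallest without DMSO 11, at 0.18.

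Among large-subunit genes the acidic stalk protein RPLP1, which helps to recruit translation factors, was the one called negative in the interaction. Its level was 757 and 743 CPM in DMSO 9 and 10, 707 and 694 CPM in DMSO 11 and 12, 871 and 791 CPM in LMI070 13 and 16 and 731 and 719 CPM in LMI070 14 and 15. Both lane 7 LMI070 libraries were above all others, and both lane 8 ones were below the DMSO libraries of their lane. The fold was 1.19 in lane 7 (log2 0.25, SE 0.0622, edgeR adjusted p = 0.00733) and 0.966 in lane 8, and the interaction was -0.30 (SE 0.0615, edgeR adjusted p = 0.00655).

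RPL28, a large-subunit protein, had 358 and 312 CPM in DMSO 11 and 12 and 385 and 407 CPM in LMI070 13 and 16, a fold of 1.18 (log2 0.25, edgeR adjusted p = 0.0171). In lane 8 it had 353 and 368 CPM in DMSO and 363 and 375 CPM in LMI070, where the groups overlapped. Its interaction of -0.21 was not called (edgeR adjusted p = 0.158). RPL8, which lies near the peptidyl transferase centre, had a lane 7 fold of 1.12 and a lane 8 fold of 0.996, neither past the test.

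RPL31, at the exit of the peptide tunnel, had 710 and 760 CPM in DMSO 11 and 12 and 653 and 598 CPM in LMI070 13 and 16, a fold of 0.851. Its lane 8 libraries stood at 791 and 783 CPM in DMSO and 801 and 778 CPM in LMI070 and overlapped. RPL34 had lane 7 and lane 8 folds of 0.845 and 1.02, RPL21 of 0.867 and 1.03, RPL9 of 0.887 and 1.04, and RPL7 of 0.879 and 1.03. Their interactions were 0.24 for RPL31, 0.27 for RPL34, 0.25 for RPL21, 0.23 for RPL9 and 0.23 for RPL7. That of RPL21 was 0.15 without DMSO 12. RPL9 and RPL7 did not pass the test within either lane alone.

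**Figure D4:**
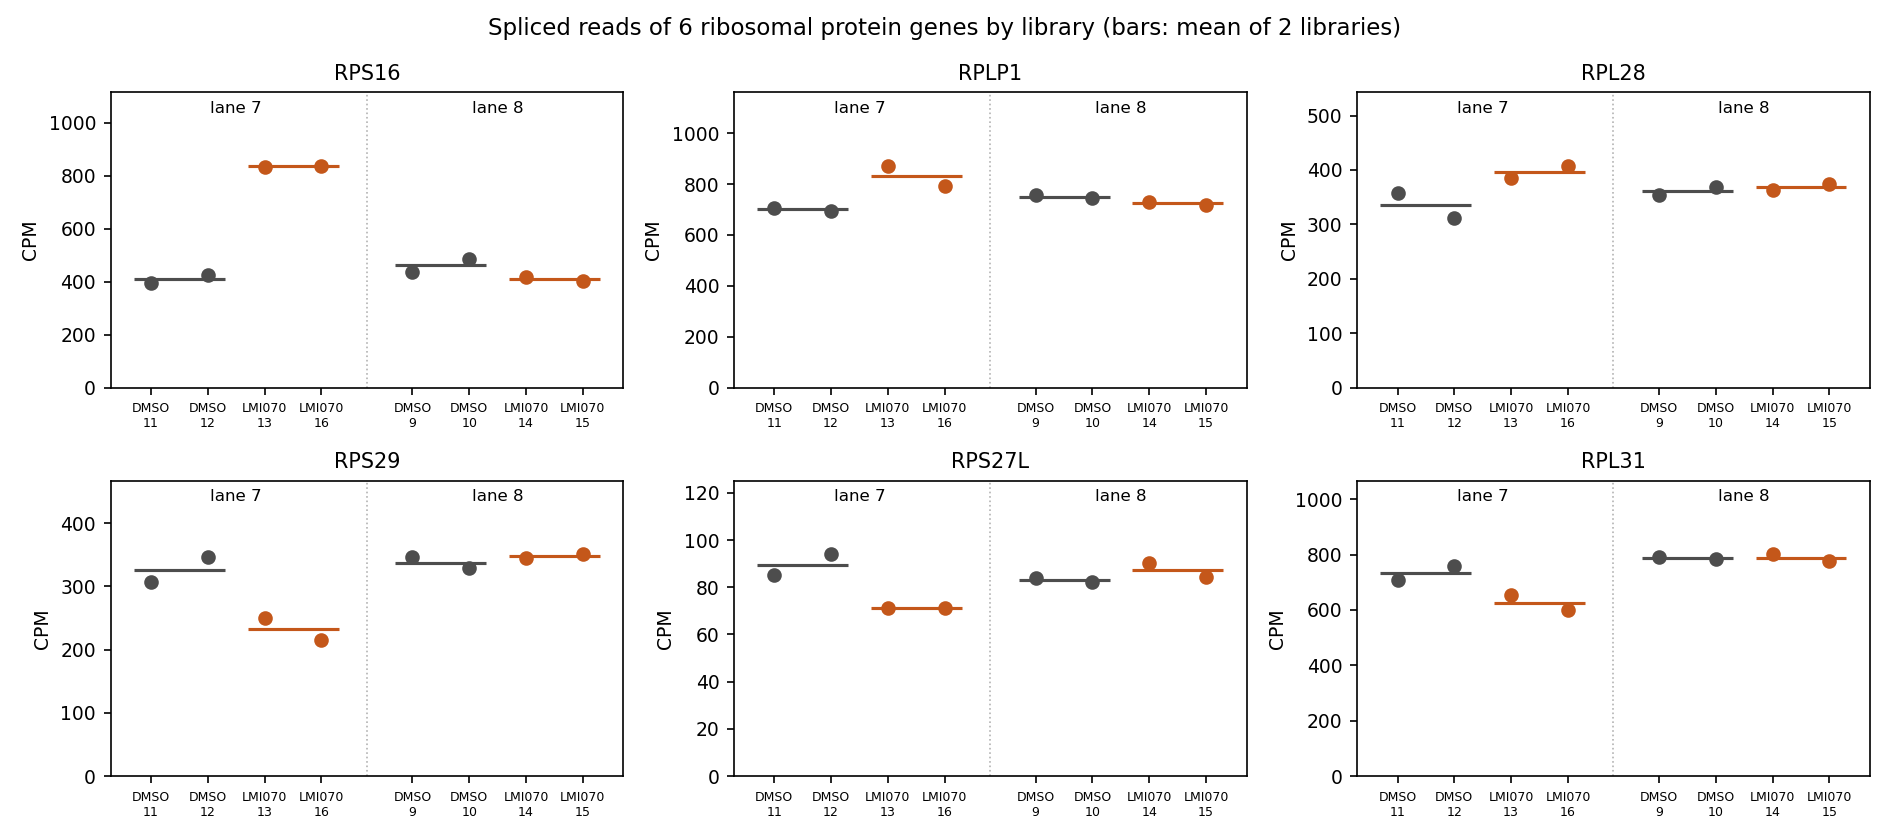
Level (CPM, linear axis from 0) of RPS16, RPLP1, RPL28, RPS29, RPS27L and RPL31 in each library, grouped by lane, with DMSO in grey, LMI070 in orange and a line at the mean of each pair. LMI070 13 and 16 stood apart from DMSO 11 and 12 in all 6 genes, upward in the top row and downward in the bottom row, whereas folds in lane 8 were 0.891 to 1.05.

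Base composition moved with the lane 7 difference. Across the 78 genes the GC content of the most-read transcript and the lane 7 log2 fold change had a Spearman rho of 0.44 and a Pearson r of 0.33. Across 12775 other genes rho was 0.34 and r was 0.27. In lane 8 rho was -0.08 for the ribosomal protein genes and 0.03 for the others. Transcript length gave rho of 0.05 in lane 7 for the ribosomal protein genes and 0.17 for the others. These are descriptions across genes that share the same 4 libraries, and the part of base composition in the result was not tested. RPS16 had a GC content of 55.0%, close to RPL28 (55.2%), RPL10 (55.9%) and RPS19 (56.7%), which are examples only. Among these, RPL28 was called higher in lane 7 and RPS19 lower, and RPL10 was not called (lane 7 fold 0.927).

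The start sites of the genes that moved were compared because TOP elements are the shared sequence of this family. A promoter entry in RefSeq (GRCh38.p14) was matched by symbol for 63 of the 80 genes. Of those, 41 (65.1%) had C followed by at least 4 pyrimidines (C or T, sense strand) at the annotated start, against 4.07% of 35116 promoters, which include the members. Here 15 bases before and 15 from the start are shown, with the longest pyrimidine run in capitals, for genes that were higher and lower in lane 7:
RPS16, chr19:39435935-39435964, minus: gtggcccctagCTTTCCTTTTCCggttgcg
RPLP1, chr15:69452803-69452832, plus: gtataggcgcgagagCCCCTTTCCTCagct
RPL31, chr2:101002274-101002303, plus: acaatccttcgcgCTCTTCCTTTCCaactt
RPL34, chr4:108620561-108620590, plus: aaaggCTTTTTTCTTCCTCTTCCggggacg
RPS27L, chr15:63157463-63157492, minus: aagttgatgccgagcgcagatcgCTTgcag
RPS29, chr14:49598696-49598725, minus: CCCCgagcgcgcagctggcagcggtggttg
The runs were 12 bases in RPS16 and RPL31, 11 in RPLP1 and 18 in RPL34, and they can include bases before the start. Windows not shown, all of genes below 0 in lane 7, held runs of 13 bases in RPL21 and RPS19. Runs there were 10 in RPL9, RPS13 and RPS25 and 7 in RPS3A. The part of these runs in the lane 7 difference was not tested. RPS27L and RPS29 had no run longer than 3 and 4 bases in these windows, which says only that those letters are absent at the RefSeq start. The RPS29 window, chr14:49598696-49598725, lies far upstream of its main introns, chr14:49586050-49586284 and chr14:49583676-49585949. No main intron reaches from that window to them, so it need not be the start of the RPS29 RNA that was counted. Whether that RNA begins with a TOP element was not tested.

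Splicing within the genes was examined at 3 levels. The first asked whether an intron's share of its gene's spliced reads changed. Reads were found on 742 annotated introns of these genes, of which 359 were main introns, and 560 could be tested. None of the 560 was called (edgeR, adjusted p under 0.05), where 0.0295% of all introns were called, and 20 (3.57%) had an unadjusted p under 0.05, against 2.87% of all introns. DESeq2 was not run on this test. All main introns but 1 had GT and AG ends, the exception being a GC-AG intron of RPS27A, chosen here after its values were seen.

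The second level asked whether the use of a junction changed against all junctions at its splice sites. It covered 666 junctions of these genes, 547 annotated and 119 unannotated. None was called by edgeR, where 0.144% of all junctions were called. An unadjusted p under 0.05 was found for 42 (6.31%), against 4009 of 129495 junctions in all (3.10%). DESeq2 also called none, with 5 at that p. The third level asked about exons that are included or skipped, 369 in these genes, 151 annotated and 218 not. Again none was called by edgeR, where 0.361% of all exons were called, with 19 (5.15%) at an unadjusted p under 0.05 against 4.90% of all exons, and none by DESeq2, with 10. Counting multiply mapped reads as well gave 1 call in each direction among junctions, both in RPL8, and 2 lower exons, both forms of 1 exon in RPL4.

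Of the tested junctions, 35 took between 5% and 95% of the reads at their sites in DMSO, and none of them passed the test. RPS24, whose 3′ end is known to be alternatively spliced through very short exons, has one of 22 bases on chromosome 10 (78040204 to 78040225). The junction that skips it stood at 55.2% ± 0.635 for DMSO and 55.1% ± 1.03 for LMI070, and the junction into it at 29.9% ± 0.449 and 30.0% ± 0.751 (SD, n = 4). RPL6 used its main 5′ splice site at 59.3% ± 0.784 and 58.5% ± 2.25, and RPL17 used its own at 73.8% ± 0.829 and 72.4% ± 2.17. RPL11, a large-subunit protein, used a 3′ splice site 3 bases downstream at 12.1% ± 1.30 in DMSO and 13.3% ± 0.828 in LMI070. The largest change, 9.31 points in RPL37A (36.4% ± 6.67 in DMSO, 45.7% ± 9.92 in LMI070), rested on 25 and 32 reads, and the groups overlapped (edgeR adjusted p = 0.977). No other tested junction changed by 2 points or more, and 15 changed by 1 point or more.

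RPL26, a large-subunit protein, held the junctions with the smallest p-values. The gene lies on chromosome 17 from 8377516 to 8383250, minus strand. Its first intron joins one 3′ splice site to several 5′ splice sites, and the main and the next most changed of these are shown, with the last 3 bases of the upstream exon in capitals:
main form, chr17:8382316-8383156: ccgaagcgggagCGGccaaaatgaagttta
minor form, chr17:8382316-8382780: tgcaggcttttcCAGccaaaatgaagttta
The minor form took 1.46%, 1.24%, 1.30% and 1.24% of the reads at its sites in DMSO 9 to 12. It took 2.40% and 2.74% in LMI070 13 and 16 of lane 7, and 1.15% and 1.40% in LMI070 14 and 15 of lane 8. Only the lane 7 LMI070 libraries stood above the rest, on 141 and 90 reads. Over all 8 libraries the log2 ratio was 0.53 (SE 0.151, edgeR adjusted p = 0.233), while in lane 7 alone it was 1.01 (edgeR adjusted p = 0.00945) and in lane 8 -0.08. It was also called without DMSO 9 (0.68, edgeR adjusted p = 0.0449) and without LMI070 14 (0.68, edgeR adjusted p = 0.0392), both libraries of lane 8.

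In the last intron of RPL26 an unannotated junction, chromosome 17 from 8378645 to 8379795, leads from the usual 5′ splice site to a 3′ splice site inside the intron. It had 8, 7, 11 and 4 reads in DMSO 9 to 12 and 3, 1, 0 and 3 in LMI070 13 to 16. That was 0.0942% ± 0.0350 of the reads at its sites in DMSO and 0.0221% ± 0.0219 in LMI070 (SD, n = 4), and the groups did not overlap. The log2 ratio was -2.13 (SE 0.562, edgeR adjusted p = 0.0948), and it was called without DMSO 12 (-2.44, edgeR adjusted p = 0.0304). Over its alternatives the adjusted p ran from 0.0304 to 1.00, the latter also in DESeq2, and only that one gave a call. Another unannotated junction, chromosome 17 from 8377693 to 8378588, leads from a 5′ splice site in the same intron to the last exon. Its 5′ splice site lies just downstream of that 3′ splice site, so both junctions can flank the same unannotated exon. On this side the groups differed less, at 33 reads in DMSO and 19 in LMI070. DMSO 9 to 12 had 9, 9, 9 and 6 reads, and LMI070 13 to 16 had 7, 3, 3 and 6 (log2 ratio -0.88, edgeR adjusted p = 0.977). The level of RPL26 itself had a lane 7 fold of 0.927 and a lane 8 fold of 1.05, neither past the test. Both LMI070 libraries were below both DMSO libraries in lane 7 and above both in lane 8. Its interaction of 0.18 was not called (edgeR adjusted p = 0.139).

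**Figure D5:**
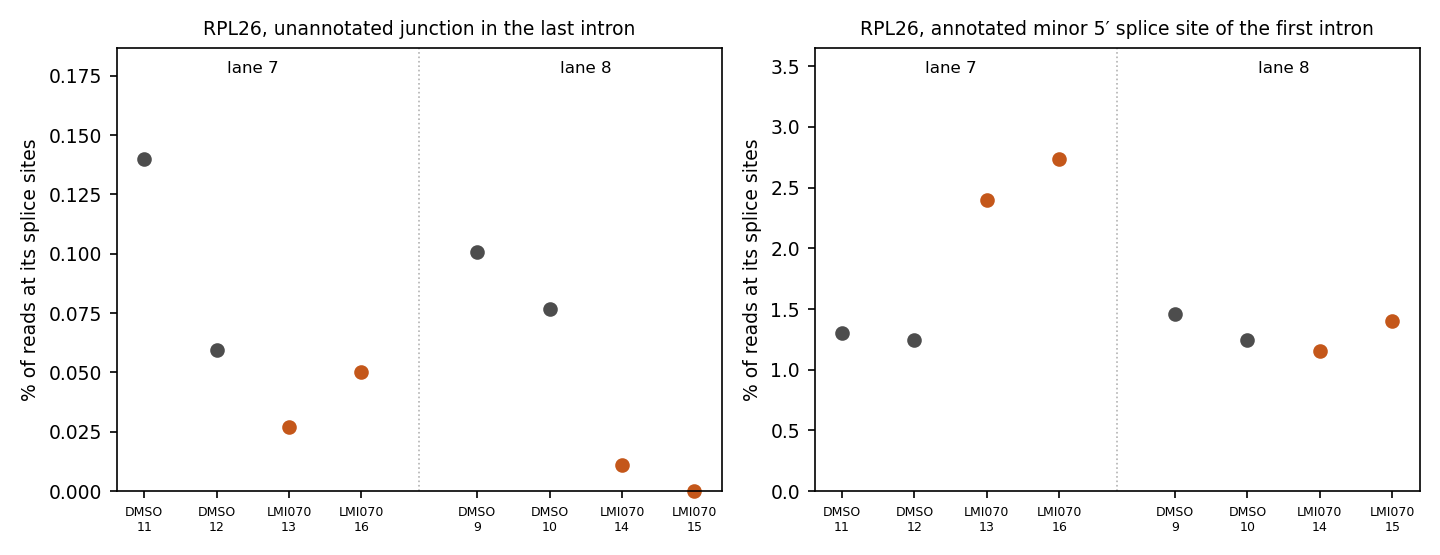
Use of an unannotated junction in the last intron of RPL26 (left) and of a minor annotated 5′ splice site in its first intron (right), as a percentage of the reads at their splice sites, in each library by lane. The left junction was lower in LMI070 in both lanes on few reads (30 in all of DMSO, 7 in all of LMI070), and the right one was higher in LMI070 in lane 7 only.

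Exons that end in GA were rare before the main introns of these genes, 3 of 359 (0.836%), and all 3 ended in AGA. They were the joins of RPL31, RPS24 and RPL7, and the first pair is shown because the drug acts at such sites, with the AGA in capitals:
RPL31, chr2:101002316-101002701: cttggacgctgcAGAatggctcccgcaaag
RPS24, chr10:78035721-78037193: catagacttgcaAGAcatggcctgtatgag
None of the 3 introns was called, and their log2 change in share of the gene lay between 0.01 and 0.02, against a median of 0.00159 over the other 356. The RPL31 intron had 84.3 ± 8.97 CPM in DMSO and 79.8 ± 19.2 CPM in LMI070. The RPS24 intron had 355 ± 29.5 and 357 ± 36.6 CPM, and the RPL7 intron 112 ± 3.71 and 109 ± 9.49 CPM (SD, n = 4). The groups overlapped within their spread at all 3.

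Unannotated splicing was rare in these genes. Between 0.0839% and 0.0882% of their uniquely mapped reads crossed an unannotated junction in DMSO, and between 0.0849% and 0.0868% in LMI070. Over all uniquely mapped junction reads the unannotated shares were 0.854% to 0.860% and 0.871% to 0.899%. That is an unlike measure, since it includes junctions that lie in no annotated gene. The 14697 such reads fell on 1551 junctions, of which 123 had at least 20 reads. RPLP2, the partner of RPLP1 in the stalk, held the most, 2086 reads or 1.02% of its spliced reads. One RPLP2 junction that skips an exon, chromosome 11 from 810040 to 811596, stood at 1.64% ± 0.194 in DMSO and 1.88% ± 0.231 in LMI070. Of 119 unannotated junctions tested, 64 were lower and 55 higher in LMI070.

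Processed pseudogenes and overlapping genes make some counts uncertain. Multiply mapped reads made up 1.35% to 1.38% of the reads on annotated introns of these genes in DMSO and 1.35% to 1.39% in LMI070. Over all junctions, annotated or not, the share was 2.43% to 2.55%. The share was highest in RPL17 (9.80%), RPS28 (9.74%), RPL39 (9.57%), RPL22 (8.18%) and RPL14 (7.68%), and it was 0.962% in RPS16 and 0.0252% in RPS29. RPL17, RPS10 and RPL36A share introns with readthrough genes, and RPL22, RPL26 and RPS15A with other annotated genes, whose reads were counted for each.

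Other genes of the translation apparatus were taken as lists. In the gene test over 8 libraries 0 genes of any of the lists were called by edgeR, and the counts at an unadjusted p under 0.05 are given with each, to be read against 10.4% of all genes. Interaction calls are to be read against 0.428% of all genes positive and 2.22% negative. Of 8 other cytosolic ribosomal proteins such as RPSA and FAU, 1 had such a p, and RPSA was called positive in the interaction. Of 79 mitochondrial ribosomal proteins, 12 (15.2%) had such a p, and the interaction was called positive in 2 and negative in 1, with medians of -0.11 in lane 7 and -0.00135 in lane 8. Of 24 translation factors and other TOP mRNAs tested, 4 (16.7%) had such a p, 1 was called positive in the interaction and 2 negative, with medians of -0.03 and 0.02. The negative ones were PABPC1, the poly(A)-binding protein (-0.54), and LARP1, which binds TOP mRNAs (-0.36), and both were higher in lane 7 (log2 0.46 and 0.38). Of 52 ribosome biogenesis genes tested, 7 (13.5%) had such a p and 3 were called negative in the interaction, with medians of -0.05 and 0.00319. Of 18 nonsense-mediated decay factors and targets, 3 (16.7%) had such a p, with 1 interaction called in each direction.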

How the data were processed

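Per the file headers and columns, the deposited tables hold raw counts of uniquely and of multiply mapped reads across each splice junction, 1 table per library, without normalization by the authors. STAR 2.6.0c and GRCh38 are the tool and build named in the submitters' processing notes, and alignment settings are not given in the sources used here. Junctions were matched to introns of GENCODE 29, and uniquely mapped counts were summed per gene over annotated introns. Genes were tested with edgeR 4.0.16 under R 4.3.3 (filterByExpr, TMM, quasi-likelihood F test, lane and treatment), and with a treatment by lane interaction. Intron share used diffSpliceDGE with at least 20 reads. Junction usage and cassette exons (3 to 500 bases) used paired counts with a coefficient per library. Benjamini-Hochberg adjustment covered every feature tested, with calls at 0.05. DESeq2 1.42.0 was an alternative. The scripts were tested on simulated data. The members, lists and tests were chosen with earlier results of these data known. Named genes were those called, or otherwise the 6 largest changes each way, the 6 highest and lowest per intron, the 5 with most multiply mapped reads, paralogs with their partners, RPL26 and RPS16. Genes outside the family were at most 2 called each way per list. Some genes that these rules name are not reported here. No reads within exons or introns were available in these tables, so levels are of spliced RNA.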

Additional observations from a re-analysis of the deposited data

Results flagged for a closer look

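The difference between LMI070 and DMSO was not the same in both lanes for 13 ribosomal protein genes, by the interaction term of the edgeR fit. On the log2 scale, lane 8 minus lane 7, it was -1.19 for RPS16, a value from 2 LMI070 libraries at 833 and 837 CPM against 419 and 403 CPM in the other lane. It was -0.30 for RPLP1. The positive values were 0.53 for RPS29, 0.40 for RPS27L, 0.27 for RPL34, 0.27 for RPS25, 0.25 for RPL21, 0.24 for RPS3A, 0.24 for RPS19, 0.24 for RPL31, 0.23 for RPL9, 0.23 for RPL7 and 0.22 for RPS13. Lane, run code and whatever else differed between the 2 sets of 4 libraries cannot be told apart. Among 68 groups of 4 libraries checked for a single library far from the other 3, over named genes and shares of reads, none stood out, where chance gives about 1 in 20. That check cannot single out 2 libraries that move together, as LMI070 13 and 16 did in RPS16.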

How the results depend on the processing

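Gene calls over 8 libraries stayed at 0 in 15 of 18 alternatives in each direction. Without the low-count filter 2 genes were higher and 1 lower, in lane 7 alone 3 and 8, and in lane 8 alone 1 and 1. The interaction, 11 positive and 2 negative, gave 36 positive and 3 negative without DMSO 12 and LMI070 16, 22 positive and 4 negative without the filter, and 1 to 40 positive and 1 to 6 negative when each library was left out. DESeq2 gave 13 and 2, TMM factors without these genes 9 and 2, and multiply mapped reads 10 and 2. For the interaction, all alternatives other than multiply mapped reads and single libraries left out were chosen after seeing the data. Intron share gave 1 higher in lane 7 alone (RPL26) and 0 to 1 lower with each library left out (RPL8 without LMI070 13). Junction usage gave 1 higher and 1 lower with multiply mapped reads, 1 and 1 in lane 7 alone, and 0 to 1 each way with each library left out. Cassette exons gave 2 lower with multiply mapped reads. Where these counts moved, the cause was not tested.

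In lane 8 alone the log2 fold change reversed for RPS16 (-0.17), RPLP1 (-0.048), RPL8 (-0.0049), RPS29 (0.046), RPS27L (0.075), RPL31 (0.0055), RPS3A (0.015), RPL34 (0.031) and RPL26 (0.069), and for the RPL26 junctions of the first intron (-0.081 for the minor and 0.14 for the main form). The RPL26 level, -0.02, also ranged from -0.035 to 0.030 with each library left out and was 0.038 without DMSO 12 and LMI070 16. No paired analysis was possible because the groups share no replicate number. Depth limits the unannotated RPL26 junction, with 30 and 7 reads, and RPL3L, with 53. Having 2 libraries per lane and group limits every within-lane value.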
